A study of Homo sapiens with 25 samples.

Results

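NKX2-1, the lung lineage homeobox factor encoded at 14q13, was compared between 2 pairs of human lung adenocarcinoma cell lines, grouped by the background level of their peak lists around that locus. The first pair was NCI-H2087 and NCI-H441, called the high pair below, and the second was NCI-H358 and HCC364, called the lower pair. The members are regions of the NKX2-1, H3K27ac and H3K4me1 chromatin immunoprecipitation (ChIP-seq) peak lists on chromosomes 1 to 22 and X. Peaks of the 4 lines were merged per antibody where they overlapped by at least 1 bp. A merged region was kept when both lines of 1 pair had a peak there and neither line of the other pair did. This rule gave 28605 regions of 404987 merged ones, from 12 of the 25 libraries in the series. They are called high-pair regions and lower-pair regions below.

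All 4 lines were untreated, grown in the same serum-supplemented medium, and each combination of line and antibody was 1 library. The pairs therefore have 2 lines each and no replicate of any line, and cultures, lots or days cannot be told apart from lines. The labels give neither genotype nor copy number, and each line comes from 1 tumour. NCI-H2087 had 8 further libraries (FOXA1, FOXA2, SOX2, c-Jun, EP300, RNA polymerase II, H3K4me3 and CTCF). For 5 input libraries no file was analysed here.

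NKX2-1 directs the formation of lung epithelium and, in the adult lung, drives genes of alveolar type 2 cells such as the surfactant proteins. In lung adenocarcinoma its locus is often gained or amplified. H3K27ac marks active promoters and enhancers, and H3K4me1 marks enhancers whether active or poised.

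NKX2-1 gave 75657 peaks in NCI-H2087 and 90578 in NCI-H441, against 75747 in NCI-H358 and 87160 in HCC364. H3K27ac lists held 47136 to 56384 peaks. H3K4me1 lists were shorter in the high pair, with 91807 peaks in NCI-H2087 and 99062 in NCI-H441, against 113605 in NCI-H358 and 121789 in HCC364. Depth in reads is not in a peak list, and the lowest background level solved from each list, a measure of relative depth, ranged from 2.52 to 2.85 fragments over the 12 libraries. H3K27ac lay within 1 kb of an end of 9 of 9 lung epithelial marker genes in both NCI-H2087 and NCI-H441, against 8 in NCI-H358, where SFTPB lacked it, and 9 in HCC364. The leukocyte gene PTPRC and the endothelial genes PECAM1 and CDH5 lacked the mark in all 4 lines. Other markers outside the epithelium carried it. Those were CD68 (immune) and COL1A1 (fibroblast) in all 4 lines, CD3E (immune) in all but HCC364, and PDGFRB (fibroblast) in NCI-H2087 and NCI-H441.

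As a stand-in for the copy level at 14q13, the local background that the peak caller assigned to each peak was used. The labels do not state whether input libraries set that background. If they did not, it comes from the ChIP reads themselves, so how far it reflects DNA copy number is unknown. The median background of peaks within 1 Mb of NKX2-1, divided by the median over the whole library, was 2.30, 2.52 and 2.28 in the NKX2-1, H3K27ac and H3K4me1 libraries of NCI-H2087. It was 2.07, 2.16 and 2.12 in NCI-H441. In NCI-H358 it was 1.44, 1.45 and 1.5, and in HCC364 0.783, 0.830 and 0.837. The 3 libraries of a line differed little, with line means of 2.37 ± 0.129 and 2.12 ± 0.048, against 1.46 ± 0.030 and 0.817 ± 0.029 (SD, n = 3 libraries each). The high pair did not overlap the lower pair, but NCI-H358 also lay above its own library median, so it is lower than the high pair and not low in itself. In HCC364, 46.2% to 58.7% of the peaks near the locus sat at the lowest level that the caller writes, so the NKX2-1 and H3K4me1 medians, which lie at that level, are upper limits, while the H3K27ac median lies just above it. The difference between pair means was 1.10, and an exact two-sided permutation of the 4 line labels gave p = 0.333, the smallest that 6 assignments allow. The pairs were set with these levels known, so the difference describes the choice of lines and supports nothing.

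**Figure D1:**
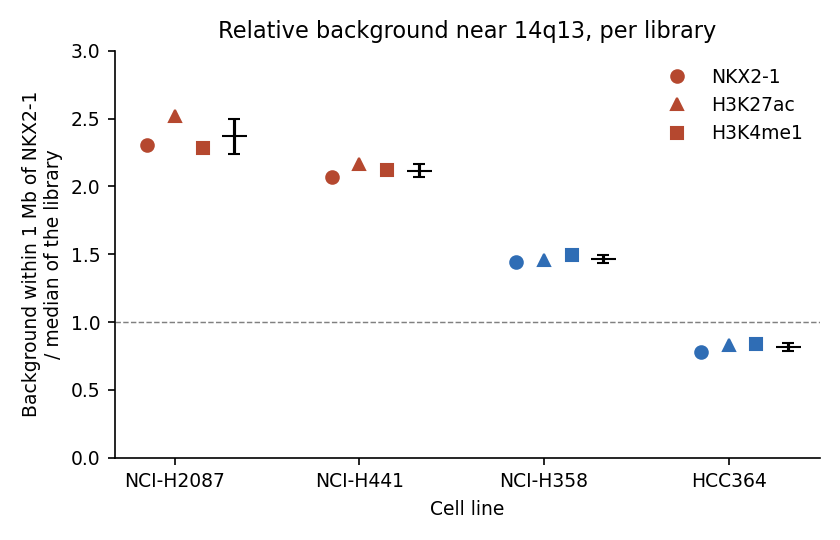
Relative background near 14q13 in each library: the y axis is the median local background of peaks within 1 Mb of NKX2-1 over the median of the same library, the x axis is the cell line, and black bars are the mean ± SD of the 3 libraries of a line. Libraries of NCI-H2087 and NCI-H441 lie between 2.07 and 2.52, those of NCI-H358 between 1.44 and 1.5 and those of HCC364 between 0.783 and 0.837.

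Promoters under pair-specific acetylation show the kind of regions the comparison returned. Of the promoter windows in the RefSeq table (GRCh38.p14, 250 bases before to 50 after each annotated start, 22132 windows of 15812 genes), 89 windows of 86 genes overlapped a high-pair H3K27ac region. Another 153 windows of 133 genes overlapped a lower-pair H3K27ac region. A pair-specific NKX2-1 region of the same pair covered 8 of the 89 and 21 of the 153 windows. The sequences below are 5 such windows, read 5′ to 3′ on the strand of the gene. They were chosen after their values were seen, and that the NKX2-1 letters occur only in the lower-pair windows is a result of this choice. Over all H3K27ac promoters the NKX2-1 letters were at 2.25% of high-pair and 3.92% of lower-pair windows. Capitals mark matches to 4 motifs searched on both strands, the NKX2-1 letters CACTTGA or CACTCAA, the forkhead letters TGTTTAC, and TGANTCA of AP-1.
SPRR3: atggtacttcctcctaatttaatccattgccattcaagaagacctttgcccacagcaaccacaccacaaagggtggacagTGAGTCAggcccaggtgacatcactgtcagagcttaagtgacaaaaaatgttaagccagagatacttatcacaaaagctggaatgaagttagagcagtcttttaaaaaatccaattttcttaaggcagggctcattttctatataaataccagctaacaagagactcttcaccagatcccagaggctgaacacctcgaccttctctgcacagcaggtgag
SPRR1B: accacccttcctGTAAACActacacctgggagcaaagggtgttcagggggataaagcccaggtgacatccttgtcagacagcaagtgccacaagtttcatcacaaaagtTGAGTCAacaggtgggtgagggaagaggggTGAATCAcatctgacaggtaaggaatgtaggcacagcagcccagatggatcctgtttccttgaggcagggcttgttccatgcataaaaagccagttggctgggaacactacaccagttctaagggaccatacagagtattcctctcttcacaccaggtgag
SFTPA1: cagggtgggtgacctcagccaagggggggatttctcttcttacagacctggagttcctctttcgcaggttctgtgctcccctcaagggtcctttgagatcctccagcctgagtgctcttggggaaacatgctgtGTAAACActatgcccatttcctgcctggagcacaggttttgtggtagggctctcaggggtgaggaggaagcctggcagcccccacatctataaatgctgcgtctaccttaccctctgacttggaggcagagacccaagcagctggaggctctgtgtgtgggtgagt
LYPD6: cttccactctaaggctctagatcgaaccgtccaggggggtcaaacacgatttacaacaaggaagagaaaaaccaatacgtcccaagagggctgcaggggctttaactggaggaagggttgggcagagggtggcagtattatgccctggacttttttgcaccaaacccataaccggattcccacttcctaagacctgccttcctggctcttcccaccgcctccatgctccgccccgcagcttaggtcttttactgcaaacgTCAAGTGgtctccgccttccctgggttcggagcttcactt
FSTL5: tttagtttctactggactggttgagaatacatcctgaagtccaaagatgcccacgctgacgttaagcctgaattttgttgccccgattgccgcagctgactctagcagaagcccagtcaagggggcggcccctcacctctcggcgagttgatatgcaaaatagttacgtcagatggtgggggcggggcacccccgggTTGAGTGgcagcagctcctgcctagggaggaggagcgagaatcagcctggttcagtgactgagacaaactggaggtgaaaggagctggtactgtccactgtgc
No capitals in these windows belong to more than 1 motif.

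SPRR3 (chr1:153001499-153001798, plus strand) and SPRR1B (chr1:153030953-153031252, plus strand) encode small proline-rich proteins of the cornified envelope. The SPRR3 window held 1 AP-1 match and had NKX2-1 peaks of 17.3-fold in NCI-H2087 and 7.14-fold in NCI-H441 and no peak in NCI-H358 or HCC364. Its H3K27ac peaks were 13.2-fold in NCI-H2087 and 18.4-fold in NCI-H441, again with none in the lower pair. SPRR1B, with 2 AP-1 matches and 1 forkhead match, had NKX2-1 peaks of 14.7-fold and 12.7-fold in NCI-H2087 and NCI-H441 and none in NCI-H358 or HCC364. In NCI-H2087 both windows carried c-Jun, FOXA1 and FOXA2 peaks. These folds are the authors' own values of summit over local background.

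SFTPA1 (chr10:79610689-79610988, plus strand) encodes surfactant protein A, a collectin of alveolar fluid. Its window, with 1 forkhead match, had H3K27ac peaks of 6.08-fold in NCI-H2087 and 12.1-fold in NCI-H441 and none in NCI-H358 or HCC364. NKX2-1 there was not specific to the high pair, at 46.0-fold in NCI-H2087 and 32.6-fold in NCI-H441, against no peak in NCI-H358 and 14.4-fold in HCC364. LYPD6 (chr2:149329735-149330034, plus strand), a regulator of Wnt and nicotinic receptor signalling, and FSTL5 (chr4:162163951-162164250, minus strand), a follistatin-like secreted protein, stood on the other side. Neither window had a peak of NKX2-1, H3K27ac or H3K4me1 in NCI-H2087 or NCI-H441, while both had an H3K4me3 peak in NCI-H2087. LYPD6, with 1 NKX2-1 match, had NKX2-1 peaks of 5.55-fold in NCI-H358 and 6.22-fold in HCC364. FSTL5, also with 1 NKX2-1 match, had stronger ones of 22.4-fold in NCI-H358 and 23.8-fold in HCC364, and its lower-pair H3K27ac region reached the window itself only in HCC364.

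Of the letters searched, those of AP-1 differed most between high-pair and lower-pair H3K27ac promoters. They were present in 14 of the 89 high-pair H3K27ac promoters (15.7%, 8.88 to 25%), 4 of the 153 lower-pair ones (2.61%, 0.717 to 6.56%) and 6.15% of all windows. Under pair-specific H3K4me1 the shares were close, at 12.2% (6.01 to 21.3%) in the high pair and 10.3% (5.24 to 17.7%) in the lower pair. Either NKX2-1 form was present in 6.90% (3.61 to 11.7%) of windows under high-pair NKX2-1 regions, 2.15% (0.589 to 5.41%) of those under lower-pair NKX2-1 regions and 4.17% of all windows. The forkhead letters were found in 3.37%, 0.654% and 2.85% of high-pair H3K27ac, lower-pair H3K27ac and all windows. Intervals here and below are exact Clopper-Pearson 95% intervals and cover counting error only, and a match of letters shows no binding.

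NKX2-1 binding differed between the pairs at 6729 high-pair regions and 4774 lower-pair regions, or 4.62% and 3.27% of the 145799 merged regions. Another 32534 regions were bound in all 4 lines. H3K27ac had 2799 high-pair regions, 3.3% of 84925, and 2051 lower-pair regions, 2.42%. H3K4me1 ran the other way, with 4218 high-pair regions, 2.42% of 174263, and 8034 lower-pair regions, 4.61%. That order turned with the 20000 strongest peaks of each list, where H3K4me1 had 2278 high-pair and 1374 lower-pair regions, and with peaks of −log10 q of at least 10, where it had 4500 and 3346. NKX2-1 had 1931 and 1570 and H3K27ac 1117 and 862 with the 20000 strongest peaks. The longer H3K4me1 lists of the lower pair stood beside its larger count in the full lists.

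How far the pairs stood apart from pairs that mix the 2 levels depended on the antibody and the list length. Of the 29702 NKX2-1 regions found in exactly 2 lines, 22.7% belonged to the high pair, 16.1% to the lower pair and 8.57% to 25.6% to a pair made of 1 line from each. The highest share, 7618 regions, belonged to NCI-H441 with HCC364. For H3K27ac the high pair held 21.2%, the lower pair 15.5% and the mixed pairs 14.6% to 19.0% of 13231 regions. For H3K4me1 the high pair held 13.7%, the lower pair 26.0% and the mixed pairs 11.3% to 18.7% of 30874 regions. With the 20000 strongest peaks the high pair led for all 3 antibodies, with 22.3%, 20.2% and 24.8%, while the lower pair held 18.1%, 15.6% and 15.0%. The mixed pairs then reached at most 17.6%, 16.7% and 16.8%. By shared bases over all bases covered (Jaccard index), NCI-H2087 and NCI-H441 were the most alike of the 6 pairs for each antibody, at 0.470, 0.523 and 0.454, and NCI-H358 and HCC364 the least alike, at 0.351, 0.371 and 0.309.

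**Figure D2:**
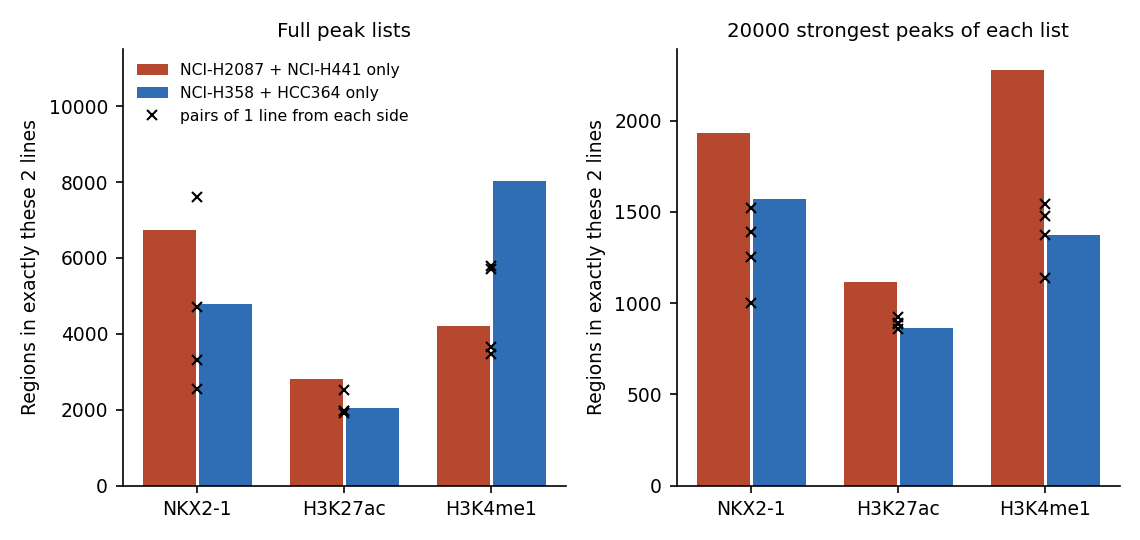
Regions found in exactly 2 of the 4 lines, for each antibody on the x axis, with full lists on the left and the 20000 strongest peaks of each list on the right; the y axis counts regions, bars are the high and the lower pair and crosses the 4 pairs of 1 line from each. In the full lists NCI-H441 with HCC364 shared more NKX2-1 regions (7618) than either pair, and the order of the H3K4me1 bars turns between the panels.

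Pair-specific NKX2-1 peaks were weaker than shared ones. In NCI-H2087 and NCI-H441 the high-pair peaks had median folds at the 42.8 and 42.1 percentile of their own lists, and in NCI-H358 and HCC364 the lower-pair peaks were at the 32.3 and 36.4 percentile. Peaks of regions bound in all 4 lines stood at the 64.4 to 70.5 percentile. High-pair NKX2-1 regions lay within 1 kb of an annotated gene end in 6.14% of cases, lower-pair ones in 11.1% and all merged regions in 10.5%. For H3K27ac the shares were 7.90%, 12.5% and 17.2%, and for H3K4me1 they ran the other way, at 16.4%, 6.30% and 11.3%.

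The next comparison asks how often NKX2-1 regions of 1 pair carried the marks in each line. H3K27ac was more frequent there in the pair that bound them than in the pair that did not, and less frequent than at regions bound in all 4 lines. H3K27ac overlapped high-pair NKX2-1 regions in 36.0% (34.9 to 37.2%) of cases in NCI-H2087 and 32.5% (31.3 to 33.6%) in NCI-H441, against 10.6% (9.86 to 11.3%) in NCI-H358 and 9.57% (8.88 to 10.3%) in HCC364. At lower-pair NKX2-1 regions the shares were 16.0% in NCI-H2087 and 14.2% in NCI-H441, against 34.6% in NCI-H358 and 36.0% in HCC364. Over all merged NKX2-1 regions, bound or not in the line, the 4 lines were close, at 32.0% to 34.6%. At regions bound in all 4 lines the shares were 65.8% to 70.0%. The share at high-pair minus lower-pair regions was thus 20.0 and 18.3 percentage points in NCI-H2087 and NCI-H441, and −24.0 and −26.4 points in NCI-H358 and HCC364. The pairs differed by 44.4 points. Since the same grouping of lines chose the regions, the order of the pairs is a description here and for the other marks, and no test of it is given.

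H3K4me1 was more frequent and split the same way. At high-pair NKX2-1 regions it was present in 61.4% of cases in NCI-H2087 and 69.7% in NCI-H441, against 32.4% in NCI-H358 and 28.6% in HCC364. At lower-pair NKX2-1 regions it was present in 18.6% and 21.6% in NCI-H2087 and NCI-H441, against 54.3% and 50.1% in NCI-H358 and HCC364. The difference between pairs was 67.1 points. The lower pair thus kept H3K4me1 at more of the sites where it lacked NKX2-1 than the high pair did at its own missing sites, in each of the 4 lines. The difference between those shares was not tested, and the H3K4me1 lists of the lower pair were longer.

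Seen from the acetylated regions, NKX2-1 lay at most of them in the pair that carried the mark. High-pair H3K27ac regions held an NKX2-1 peak in 77.9% of cases in NCI-H2087 and 86.8% in NCI-H441, against 34.5% in NCI-H358 and 38.2% in HCC364. Lower-pair H3K27ac regions held one in 27% and 37.0% in NCI-H2087 and NCI-H441, against 60.8% and 65.8% in NCI-H358 and HCC364. The pairs differed by 77.3 points. Over all H3K27ac regions NKX2-1 was present in 46.8% to 54.9%, and at those acetylated in all 4 lines in 82.0% to 88.3%.

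**Figure D3:**
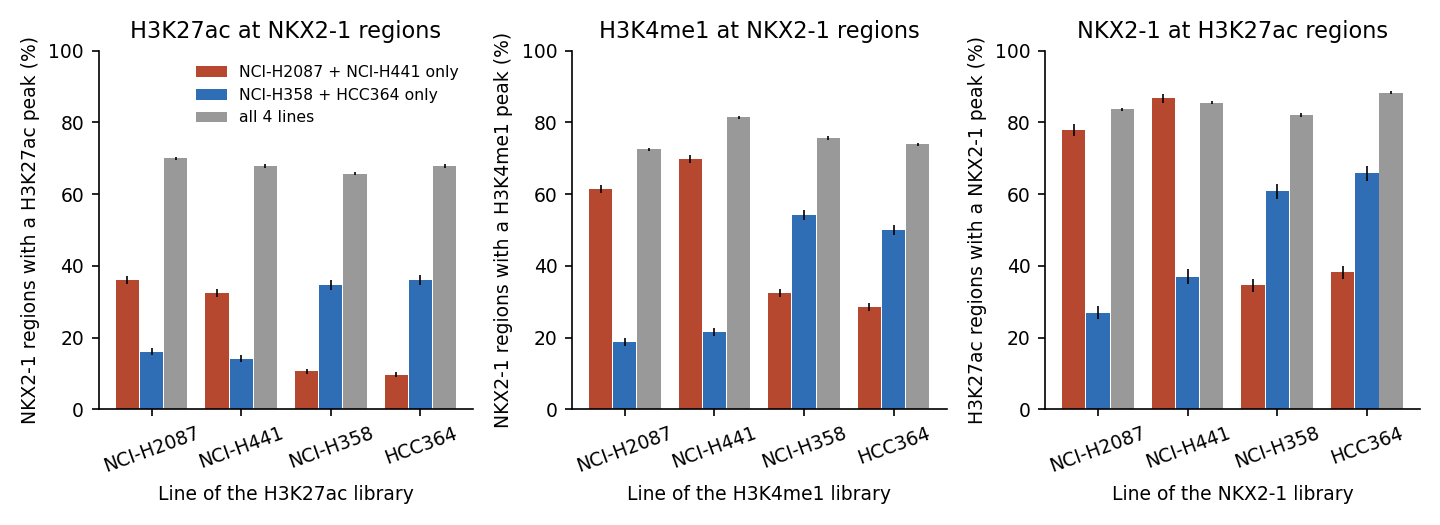
Share of NKX2-1 regions with an H3K27ac peak (left) and an H3K4me1 peak (middle), and share of H3K27ac regions with an NKX2-1 peak (right), in percent with exact 95% intervals; the x axis is the line of the overlapping library. In NCI-H2087 and NCI-H441 the high-pair bars exceed the lower-pair bars (H3K27ac 36.0% and 32.5%, over 16.0% and 14.2%), and in NCI-H358 and HCC364 the order is the opposite.

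Most pair-specific binding was not matched by a whole pair-specific mark. Of the high-pair NKX2-1 regions, 799 (11.9%) overlapped a high-pair H3K27ac region and 2 a lower-pair one. H3K4me1 of the high pair overlapped 1092 (16.2%), and 279 overlapped both marks of that pair. Of the lower-pair NKX2-1 regions, 383 (8.02%) overlapped a lower-pair H3K27ac region and 0 of 4774 a high-pair one, 1025 (21.5%) overlapped lower-pair H3K4me1 and 154 both. No line had either mark at 1184 (17.6%) of the high-pair and 1244 (26.1%) of the lower-pair NKX2-1 regions. Both lines of the lower pair had H3K27ac at 373 (5.54%) of the high-pair NKX2-1 regions, and both lines of the high pair had it at 544 (11.4%) of the lower-pair ones.

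Among pair-specific NKX2-1 regions that also overlapped pair-specific H3K27ac and H3K4me1, those with the strongest NKX2-1 peaks in both lines are named. For the high pair the leading region lay 45180 bp from ATP12A, a proton pump gene on chromosome 13 (24634561 to 24635227), with folds of 39.2 in NCI-H2087 and 49.7 in NCI-H441. The next lay inside TM9SF4 on chromosome 20 (32145084 to 32145963), with folds of 36.6 and 50.6, and then came regions near TNS1, a focal adhesion gene, GPR26 and STX2. For the lower pair the leading region lay 224161 bp from CFAP47 on chromosome X (36609478 to 36610763), with folds of 33.0 in NCI-H358 and 37.1 in HCC364. It was followed by a region inside LRRC4C, a synaptic adhesion gene, and by regions nearest KCNV1, MAT2B and CDH6. In NCI-H2087 FOXA1, FOXA2 and c-Jun had a peak at 4 of the 5 high-pair regions, and none of the 8 further antibodies had one at the 5 lower-pair regions. The choice of regions favours this contrast. The high-pair ones had to overlap regions of NKX2-1 and both marks found in NCI-H2087, and the lower-pair ones regions missing there. Over all pair-specific NKX2-1 regions c-Jun was at 14.5% of high-pair and 1.36% of lower-pair ones.

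The 8 further NCI-H2087 libraries describe high-pair binding in 1 line of that pair only. High-pair NKX2-1 regions overlapped FOXA1, a forkhead factor that opens chromatin, in 50.1% of cases and FOXA2, its paralog, in 58.0%. As a comparator, regions bound in NCI-H2087 and 1 line of the lower pair but not in NCI-H441 overlapped them in 43.0% and 49.0%, and regions bound in all 4 lines in 60.7% and 63.2%. SOX2 was at 10.4% of the high-pair regions and 7.23% of the comparator, and c-Jun at 14.5% and 10.7%. EP300 differed little, at 2.70% and 2.2%. The order was the opposite for RNA polymerase II, at 10.2% and 18.9%, for the promoter mark H3K4me3, at 7.19% and 23.5%, and for CTCF, the insulator protein, at 10.4% and 22.5%. For all but EP300 the 95% intervals of the 2 classes did not overlap, and these intervals compare regions of 1 library, not lines. For some antibodies regions bound in NCI-H2087 alone were close to the high-pair ones, so these shares are not particular to the pair. There FOXA1 was at 52.0%, FOXA2 at 61.2%, SOX2 at 12.7%, RNA polymerase II at 11.1% and CTCF at 10.1%. The same regions were less close in c-Jun, at 5.78%, EP300, at 1.11%, and H3K4me3, at 12.0%. With the 20000 strongest peaks of each list c-Jun lay at 45.2%, SOX2 at 28.7%, EP300 at 16.9% and CTCF at 3.42% of high-pair NKX2-1 regions. This cut shortened the NKX2-1 lists and the longer factor lists together. The SOX2 and EP300 lists, of 9262 and 7406 peaks, were left whole, and the cause of the change was not tested.

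Lower-pair NKX2-1 regions, which lack NKX2-1 in NCI-H2087, had little FOXA1 (10.5%), FOXA2 (13.3%), c-Jun (1.36%) or SOX2 (3 of 4774 regions, 0.063%) there. H3K4me3 lay at 15.3% of the lower-pair regions, close to its 14.5% of all merged NKX2-1 regions. CTCF lay at 33.5% (32.1 to 34.8%) of the lower-pair regions, against 10.4% of high-pair ones and 28.4% of regions bound in all 4 lines. It was at 22.5% of regions bound in NCI-H2087 and 1 line of the lower pair but not in NCI-H441. Regions bound in 1 line of the lower pair only had it in 18.8% and all merged NKX2-1 regions in 19.7%. High-pair H3K27ac regions overlapped c-Jun in 34.3%, and regions acetylated in all 4 lines did so in 41.3%. Regions acetylated in NCI-H2087 and 1 line of the lower pair but not in NCI-H441 overlapped c-Jun in 29.3%, and those acetylated in NCI-H2087 alone in 15.7%. Lower-pair H3K27ac regions, which lack the mark in NCI-H2087, did so in 9.61%.

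**Figure D4:**
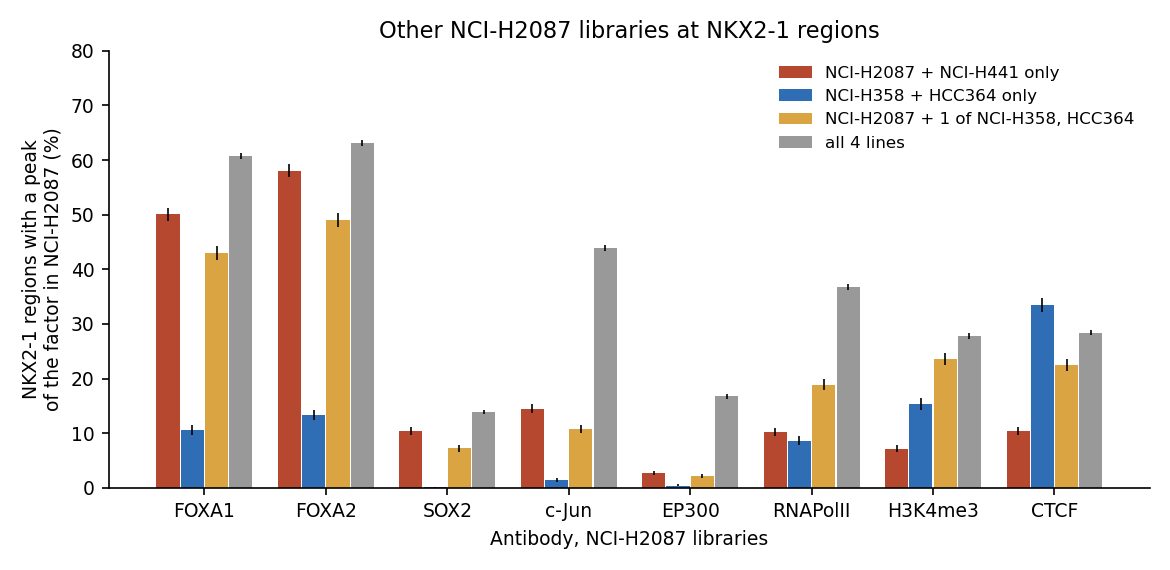
Share of NKX2-1 regions, in percent with exact 95% intervals, that overlapped a peak of 8 further antibodies in NCI-H2087 (x axis), for 4 classes of region. Forkhead factors lie at 50.1% and 58.0% of high-pair regions, and CTCF lies at 33.5% of lower-pair regions, above the other 3 classes.

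Around 14q13 itself, the 2 Mb centred on NKX2-1 held 189 merged NKX2-1 regions, of which 131 were bound in NCI-H2087 and 136 in NCI-H441, against 120 in NCI-H358 and 82 in HCC364. Of these, 15 (7.94%) were high-pair regions and 3 (1.59%) lower-pair ones, where the genome-wide shares were 4.62% and 3.27%. H3K27ac had 8 high-pair and 3 lower-pair regions among 88, and H3K4me1 6 and 4 among 211. HCC364 had the fewest regions for each antibody, with 24 H3K27ac regions, against 63 in NCI-H2087, 58 in NCI-H441 and 60 in NCI-H358. Background at the locus was also lowest in HCC364, while the order of the other lines differed by antibody. H3K4me1 regions numbered 118 in NCI-H2087 and 130 in NCI-H441, against 161 in NCI-H358 and 71 in HCC364. The part of background in these counts was not tested. Of 11 genes listed at the locus, 8 had a high-pair NKX2-1 region and no lower-pair one within 50 kb, 3 had both and 0 had only lower-pair ones. Over all genes these shares were 26.5%, 7.42% and 15.6%. The median difference was 2 regions a gene, against 0 over all genes, and as neighbours these genes count some of the same regions. For H3K27ac the 3 counts were 7, 1 and 0, with a median difference of 1. For H3K4me1 they were 4, 4 and 0, with a median difference of 0. MBIP, which encodes a kinase-binding protein beside NKX2-1, had 3 high-pair NKX2-1 and 3 high-pair H3K27ac regions and 0 of the lower pair. NKX2-1 (chromosome 14, 36516397 to 36520232) had 16 NKX2-1 regions in NCI-H2087 and 19 in NCI-H441, against 10 in NCI-H358 and 15 in HCC364, and 2 of them were high-pair regions. FOXA1, in the same part of 14q, had 13 and 16, against 13 and 2.

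Elsewhere in the genome, levels of background moved in part with the pair-specific regions. In 1 Mb bins, both high-pair lines exceeded both lower-pair lines in 362 of 2413 bins (15.0%), and the lower pair exceeded the high pair in 692 (28.7%). High-pair NKX2-1 regions fell into the first kind of bin in 21.2% of cases and into the second in 19.9%, where all merged regions did so in 16.3% and 26.0%. Lower-pair NKX2-1 regions fell into them in 10.3% and 38.0%. In 624 bins the mean background of the pairs differed by less than 0.1 on the log2 scale, a choice made after seeing the data. Single lines could still differ in such a bin, as in that of the gene KIF26B, with 1.14 and 1.10 against 0.851 and 1.39. The 624 bins held 1997 high-pair and 783 lower-pair NKX2-1 regions, a ratio of 2.55, where it was 1.41 over the whole genome. H3K27ac had 820 and 411 there and H3K4me1 1332 and 1477. In these bins the differences in marks described above were 43.1 points for H3K27ac and 60.2 for H3K4me1 at NKX2-1 regions. For NKX2-1 at H3K27ac regions the difference was 68.5 points. Over the whole genome these values were 44.4, 67.1 and 77.3 points.

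By chromosome, high-pair NKX2-1 regions outnumbered lower-pair ones on 16 of 23 chromosomes. Chromosome 16 had 7.03% high-pair and 2.30% lower-pair regions, chromosome 6 had 6.89% and 1.45%, and chromosome 10 had 6.77% and 1.57%. Chromosome 4 had 2.40% and 6.34%, chromosome 9 had 2.65% and 5.88%, and chromosome 8 had 3.8% and 5.35%. Chromosomes 4 and 9 had lower background in the high pair, with log2 ratios of high over lower pair of −0.33 and −0.44, while chromosome 6 had 0.0035. The ratio was −0.17 on chromosome 10 and −0.06 on chromosome 8. Chromosome 20 had a ratio of −0.37, yet 4.00% high-pair and 2.79% lower-pair regions. Across the 23 chromosomes the excess of high-pair over lower-pair NKX2-1 regions and the background ratio had Pearson r = 0.468 and Spearman rho = 0.405, given as a description, since chromosomes share libraries. The bins with the most lower-pair regions lay on the short arm of chromosome 8, where the bin starting at 30000001 had 53 lower-pair and 0 high-pair regions over the 3 antibodies. Its background was 0.702 in NCI-H2087 and 0.732 in NCI-H441, against 1.15 in NCI-H358 and 1.13 in HCC364. The bin with the most high-pair regions, 39 with 0 of the lower pair, lay on chromosome 10 (102000001 to 103000000), with background of 0.892 and 0.773, against 0.793 and 0.808.

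**Figure D5:**
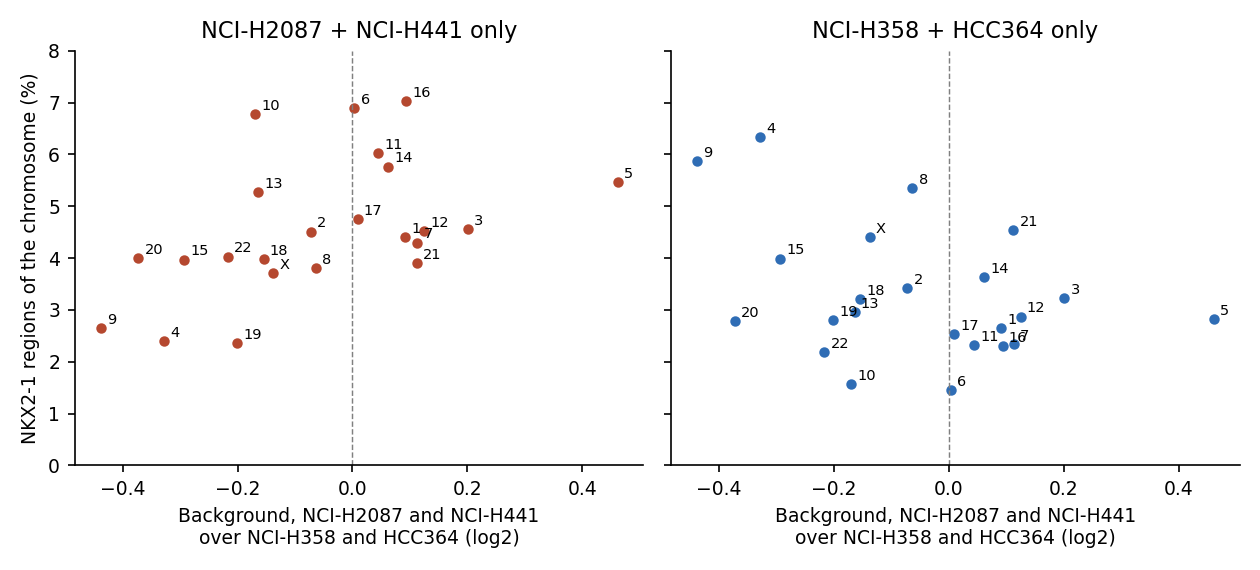
NKX2-1 regions specific to the high pair (left) and to the lower pair (right) as a percentage of the merged regions of each chromosome (y axis), against the log2 ratio of background of the high over the lower pair (x axis); each labelled point is a chromosome. Chromosomes 4 and 9, with low ratios, have 6.34% and 5.88% lower-pair regions, while chromosome 20, also with a low ratio, has 2.79%. Chromosomes 16 and 6, with ratios near 0, have 7.03% and 6.89% high-pair regions.

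Genes were compared by the pair-specific regions within 50 kb of their span. Of 19974 protein-coding genes, 33.9% had a high-pair NKX2-1 region and 23% a lower-pair one. A high-pair and no lower-pair NKX2-1 region was found at 26.5%, the reverse at 15.6%, both at 7.42% and neither at 50.5%. For H3K27ac the 4 shares were 15%, 12.1%, 2.03% and 70.9%, and for H3K4me1 19.7%, 23.8%, 6.24% and 50.3%. High-pair regions of all 3 antibodies, with no lower-pair region, were found at 787 genes (3.94%), and the reverse at 527 (2.64%). At the level of genes, pair-specific marks are set beside pair-specific binding as a description, since the same grouping of lines chose both. The part of background in these gene counts was not tested. Of the 5297 genes with high-pair NKX2-1 alone, 31.6% had a high-pair and 10.7% a lower-pair H3K27ac region, where 17.0% and 14.1% of all genes did. Of the 3109 genes with lower-pair NKX2-1 alone, 8.27% had a high-pair and 28.2% a lower-pair H3K27ac region.

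On the high-pair side, RGS17, an inhibitor of G protein signalling on chromosome 6 (153004459 to 153131282), led for NKX2-1 among genes with no lower-pair NKX2-1 region. It had 11 NKX2-1, 7 H3K27ac and 3 H3K4me1 regions and 0 of the lower pair. The sum over the 3 antibodies, 21, was the same at TMPRSS13 and EDDM3A. RGS17 had 24 NKX2-1 regions in NCI-H2087 and 19 in NCI-H441, against 6 in NCI-H358 and 10 in HCC364. Background in its bin hardly differed, at 0.802 and 0.857, against 0.793 and 0.837. TMPRSS13, a membrane serine protease gene on chromosome 11 (117900641 to 117929402), had 9 high-pair H3K27ac regions. Its H3K27ac regions numbered 11 in NCI-H2087 and 10 in NCI-H441, against 0 in NCI-H358 and 0 in HCC364. IL10RA, the interleukin 10 receptor gene beside it, shares part of them. SCNN1B, a subunit of the epithelial sodium channel, had 8 high-pair NKX2-1 regions, with 18 and 23 NKX2-1 regions in NCI-H2087 and NCI-H441, against 2 and 12 in NCI-H358 and HCC364. The ribonuclease genes ANG and RNASE4 had 7 each and their neighbour EDDM3A 9, from the same cluster on chromosome 14. The kinase gene RPS6KA2 had 8, FOXO3, a forkhead factor of the insulin pathway, 7, and the kinesin gene KIF26B and the ubiquitin ligase gene PELI2 6 each. RANBP2 had 9, but its annotated span of 1122820 bp runs over other genes, and with windows at the gene ends alone the difference over the 3 antibodies was 0.

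High-pair H3K27ac within 1 kb of a gene end was found at 237 genes (1.19%), and lower-pair H3K27ac at 289 (1.45%). IGF2BP3, an oncofetal RNA-binding protein, had the longest high-pair H3K27ac within 25 kb, 13.7 kb, and carried the mark at an end in NCI-H2087 and NCI-H441 and not in NCI-H358 or HCC364. Its H3K27ac regions within 50 kb did not follow the pairs, with 18 in NCI-H2087 and 3 in NCI-H441, against 9 in NCI-H358 and 4 in HCC364. FAM174B followed with 11.6 kb, RGS17, which had the mark at an end in all 4 lines, with 9.23 kb, FAM110C with 9.20 kb and TMPRSS13 with 7.25 kb. The mucin gene MUC21 had 7.14 kb, SIRPB2, which also had the mark at an end in HCC364, 6.80 kb and TCN1, a cobalamin carrier, 6.72 kb. On the other side, EDIL3, an integrin ligand of the extracellular matrix, had 10.3 kb of lower-pair H3K27ac, OPA3 8.76 kb, SAXO4 8.50 kb and the lysophosphatidic acid receptor gene LPAR1 8.16 kb. The death-associated kinase gene DAPK1 had 7.33 kb, the transporter genes SLCO3A1 and SLC25A37 had 6.98 and 6.12 kb and DTX2, a Notch pathway ligase, 5.29 kb. OPA3, SLC25A37 and DTX2 carried H3K27ac at a gene end in all 4 lines.

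The genes with the most lower-pair NKX2-1 regions included very long ones, which a count over the span favours. CSMD3 on chromosome 8, MACROD2 on chromosome 20 and SOX5, a SOX factor on chromosome 12, had 13 each and 0 of the high pair. LRP1B, a lipoprotein receptor relative, and NFIB, a nuclear factor I gene of lung maturation, had 10 each. Spans were 1214012 bp for CSMD3, 2057682 bp for MACROD2 and 1899594 bp for LRP1B, where RGS17 spans 126824 bp and, on the high-pair side, KIF26B and RPS6KA2 span 554448 and 453410 bp. With windows at the gene ends alone, high-pair minus lower-pair regions over the 3 antibodies were −5 at CSMD3 and −4 at MACROD2, against −26 and −32 over the span. CSMD3 had 0 NKX2-1 regions in NCI-H2087 and 1 in NCI-H441, against 23 in NCI-H358 and 16 in HCC364. LRP1B had 0 and 15, against 46 and 30, and SOX5 12 and 1, against 44 and 18. Mean background was lower in the high pair at most leading lower-pair genes whose bin had a level. Relative levels were 0.943 and 1.46 against 2.40 and 1.13 at SOX5, 0.743 and 0.709 against 1.36 and 0.837 at MACROD2, and 0.782 and 0.732 against 0.929 and 1.18 at NFIB. At LPAR1, with 8 lower-pair H3K27ac regions, it was 0.818 and 0.815, against 1.16 and 1.15, and at TENM3 0.717 and 0.796, against 1.14 and 1.04. Mean background was also lower at other such genes, with log2 ratios of high over lower pair from −0.67 at RBPMS to −0.13 at SEPTIN9. It was not lower at EDIL3, SAXO4 and GRIP1, with ratios of 0.20, 0.10 and 0.06. The part of this background in the region counts was not tested.

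Further genes on that side had H3K27ac at their lead. SEPTIN9, a cytoskeletal septin gene, had 9 lower-pair H3K27ac regions, though its NKX2-1 regions included 2 of the high pair and 1 of the lower pair. AFAP1, an actin-binding adaptor gene, and PRAG1 had 7 each and the RNA-binding protein gene RBPMS 6. TENM3, LINGO2, ROBO2 and BNC2 had lower-pair regions of all 3 antibodies and none of the high pair, and GRIP1 had 17 lower-pair H3K4me1 regions. TENM3, LINGO2 and ROBO2 encode cell surface proteins of neurons.

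Alveolar type 2 genes had more members with high-pair than with lower-pair NKX2-1, and members of both kinds for the marks. Of 16 genes, 8 had high-pair NKX2-1 regions alone and 2 lower-pair ones alone, with a median difference of 0.5 regions, against 26.5%, 15.6% and 0 over all genes. SFTPB, encoding surfactant protein B, had 3 high-pair NKX2-1 regions, the lysosomal membrane gene LAMP3 had 2, and SFTPA1, SFTPA2, SFTPD, MUC1, CTSH and ETV5 had 1 each. LPCAT1, an enzyme of surfactant lipid synthesis, had 1 lower-pair region. H3K27ac was found for the high pair alone at 3 and the lower pair alone at 1 (NAPSA), and H3K4me1 at 6 and 4. Those 4 were SFTPC, NAPSA, ABCA3 and LRRK2. SFTPA1 had 7 NKX2-1 regions in NCI-H2087 and 9 in NCI-H441, against 0 in NCI-H358 and 4 in HCC364, and its H3K27ac regions numbered 4 and 6, against 0 and 0. SFTPA2, its neighbour and near-identical copy, had 3 and 5 H3K27ac regions, against 0 and 0, and reads of the 2 copies may be placed on either. SFTPC, encoding surfactant protein C, had the reverse pattern, with 5 lower-pair NKX2-1 and 7 lower-pair H3K4me1 regions. Its NKX2-1 regions numbered 3 and 9, against 16 and 15, and its H3K4me1 regions 4 and 6, against 19 and 18. It lies on the short arm of chromosome 8, where background was 0.702 and 0.732 in NCI-H2087 and NCI-H441, against 0.911 and 0.965 in NCI-H358 and HCC364. At SFTPA1 background was 0.818 and 0.763, against 0.793 and 0.909.

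In each list below, the shares to read against are those of all genes, 26.5% and 15.6% for NKX2-1, 15% and 12.1% for H3K27ac, and 19.7% and 23.8% for H3K4me1, for high-pair alone and lower-pair alone. Of 12 alveolar type 1 genes, 5 had high-pair NKX2-1 alone, 1 lower-pair alone and 2 both, with AGER, encoding the receptor for advanced glycation end products, and HOPX, a homeodomain cofactor, at 2 high-pair regions each. The same list had 2 and 2 genes for H3K27ac and 1 and 3 for H3K4me1, where HOPX had a lower-pair region. Of 14 keratin and junction genes, 9 had high-pair NKX2-1 alone and 2 lower-pair alone, with a median difference of 1 region. H3K27ac had 5 and 1, with 8 high-pair and 7 lower-pair regions in all, and H3K4me1 the reverse order, 3 and 6, with KRT7, KRT8, KRT18 and KRT19 among the 6. KRT8, a keratin of simple epithelia, had 4 high-pair regions and CLDN7, a tight junction claudin, 3, while TJP1, a tight junction scaffold, had 3 lower-pair NKX2-1 and 4 lower-pair H3K27ac regions. Of 12 basal and squamous genes, 6 had high-pair NKX2-1 alone and 1, ITGA6, lower-pair alone, while H3K27ac had 4 and 0 and H3K4me1 0 and 3 (PKP1, ITGA6 and KRT15). TP63, the basal cell regulator, had 2 high-pair regions, but its NKX2-1 regions numbered 20 and 37, against 36 and 14, so neither pair was uniform. KRT6A had 3 and 4 H3K27ac regions in NCI-H2087 and NCI-H441, against 0 and 2 in NCI-H358 and HCC364. KRT8 and KRT6A lie in 1 bin of chromosome 12 whose background was 2.92 in NCI-H2087 and 1.00 in NCI-H441, against 0.8 in NCI-H358 and 0.906 in HCC364, and its part in these counts was not tested.

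Other groups differed in direction. Of 16 lung epithelial transcription factor genes, 6 had high-pair NKX2-1 alone and 3 lower-pair alone, yet lower-pair regions were more numerous, 14 against 8 high-pair ones, since NFIB alone had 10. IRX3, an Iroquois homeobox gene, had 3 lower-pair regions. FOXA2 had none of either pair, and SOX2, a foregut and basal factor, had 1 high-pair region. Of 14 mesenchymal genes, 3 had high-pair and 4 lower-pair NKX2-1 alone, while H3K27ac had 4 and 3 and H3K4me1 2 and 8. On the high-pair side TGFBI had 2 NKX2-1 regions and PRRX1 and ZEB1 had 1 each. On the lower-pair side SNAI1, a repressor of E-cadherin, had 2 NKX2-1 regions. CDH2, encoding N-cadherin, had 0 and 0 H3K4me1 regions, against 8 in NCI-H358 and 27 in HCC364. Its NKX2-1 regions numbered 0 and 0, against 2 and 10, so most of both kinds were in HCC364. Of 8 thyroid genes, none had a high-pair NKX2-1 region and 3, PAX8 and TSHR among them, had 1 lower-pair NKX2-1 region each. Ciliated genes had 1 high-pair and 3 lower-pair members of 12, led by the tubulin gene TUBA1A with 3 lower-pair regions. In TGF-beta and YAP signalling, 7 of 14 had high-pair NKX2-1 alone, among them TGFBR1 with 2, and 3 (TGFBR2, SMAD3 and TGFB1) lower-pair alone, with a median difference of 1 region, while H3K4me1 had 1 and 4.

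The remaining lists had small numbers, several of them near the shares of all genes. High-pair against lower-pair NKX2-1 alone was found at 7 and 4 of 17 receptor kinase and MAPK genes, with EGFR, MET and ERBB3 at 1 high-pair region each and ERBB2 and FGFR1 at 1 lower-pair region each. It was 6 and 2 of 17 HOX genes, led by HOXB2 with 3, 4 and 1 of 10 AP-1 genes, 3 and 4 of 14 gastric, intestinal and hepatic genes, and 3 and 2 of 12 airway secretory genes. FOSB, an AP-1 subunit, had 4 lower-pair H3K27ac regions and OPA3 beside it also had 4. Neuroendocrine genes had 1 and 2 of 10, erythroid genes 1 and 1 of 8, and housekeeping genes 2 and 1 of 10. Immune genes had 3 and 0 of 10, and fibroblast and endothelial genes 4 and 3 of 10. No immune, fibroblast or endothelial gene of these lists had high-pair H3K27ac alone.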

How the data were processed

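NKX2-1, H3K27ac and H3K4me1 ChIP-seq peak lists of 4 lines were used, with 8 further NCI-H2087 lists. Per the submitters' processing notes, the tools were MACS2 (versions 2.1.1 and 2.2.7.1), bedtools, SAMtools 1.9, Bowtie2 2.2.9 and Trimmomatic 0.36, with build hg38, and their roles are not given in the sources used here. The lists deposited by the authors are per library. Column 7 of the deposited lists is the linear fold (ratio) of summit over local background, and columns 8 and 9 are the authors' −log10 p and −log10 q. The values describe and rank peaks within a list.

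Peaks off chromosomes 1 to 22 and X (0.061% to 0.502% of a list) were left out. Pileup and local background were solved from fold and p for whole-number pileups. Bins of 1 Mb needed 5 peaks in each line. Genes were those of GRCh38.p14, which gives spans without strand. Listed names were matched by symbol, and 2 entries found no protein-coding gene. The solving and merging steps were tested on simulated data. The 14q13 background was compared by an exact two-sided permutation of 4 line labels. The same test, planned for the marks, is not reported, since the line labels also chose the regions. Versions were python 3.11.15, numpy 2.4.6, pandas 2.3.3 and scipy 1.17.1.

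Members and gene lists were chosen with earlier results of these data known. Named genes were, per pair, the 5 with the most pair-specific regions of each antibody and none of the other pair, the 10 with most over all 3 antibodies, 8 by acetylated length at a gene end, 2 leading members of each list, a set of loci, and 5 NKX2-1 regions that overlapped both pair-specific marks. Other list members and the 5 promoters were named after their values were seen. Alternatives were the 20000 strongest peaks, −log10 q of at least 10, summit windows, other gene windows and leaving out each line.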

Additional observations from a re-analysis of the deposited data

Results flagged for a closer look

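In 3 results every line of the high pair moved one way and every line of the lower pair the opposite way. H3K27ac at high-pair minus lower-pair NKX2-1 regions was 20.0 and 18.3 percentage points in NCI-H2087 and NCI-H441, and −24.0 and −26.4 points in NCI-H358 and HCC364, a difference of 44.4 points. H3K4me1 at the same regions was 42.7 and 48.1 points, against −21.8 and −21.5 points, a difference of 67.1 points. NKX2-1 at high-pair minus lower-pair H3K27ac regions was 51.0 and 49.8 points, against −26.2 and −27.5 points, a difference of 77.3 points. The regions were chosen by the same grouping of lines, which favours this pattern, so the differences between pairs were not tested and are a description. In bins where the mean background of the pairs was near-equal, though single lines could differ, the differences were 43.1, 60.2 and 68.5 points.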

How the results depend on the processing

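Pairs of counts here are of high-pair and lower-pair regions, for NKX2-1, H3K27ac and H3K4me1 in turn. With the 20000 strongest peaks of each list there were 1931 and 1570, 1117 and 862, and 2278 and 1374. With peaks among the 20000 strongest in a pair and none in the full lists of the other there were 304 and 156, 210 and 93, and 94 and 80. With −log10 q of at least 10, lower-pair H3K27ac had 1277 and H3K4me1 3346 regions, and with 500 bp summit windows high-pair H3K27ac had 4600 and H3K4me1 8791. Bins where the mean background of the pairs was near-equal, chosen after seeing the data, held 1997 and 783, 820 and 411, and 1332 and 1477. Leaving out each line, which asks for 1 line fewer, gave ranges of 14983 to 22119 and 7325 to 25326 for NKX2-1, 6213 to 11427 and 3678 to 21080 for H3K27ac, and 10906 to 17309 and 11695 to 44047 for H3K4me1.

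With the 20000 strongest peaks, shares at high-pair NKX2-1 regions were 42.9% for FOXA1, 44.1% for FOXA2, 28.7% for SOX2, 45.2% for c-Jun, 16.9% for EP300, 19.3% for RNA polymerase II and 3.42% for CTCF, and the cause was not tested. Genes near regions numbered 3662 and 2518 for NKX2-1, 1702 and 1475 for H3K27ac, and 2861 and 3360 for H3K4me1 within 10 kb, and 2428 and 2229, 1690 and 1562, and 3162 and 1869 with the 20000 strongest peaks. Leaving out each line gave 11217 to 13843 and 6963 to 14184 genes, 6752 to 8796 and 4564 to 11847, and 9876 to 12681 and 8004 to 15264.

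The difference in H3K27ac kept its sign under every alternative run, at 37.0 to 55.9 points, as did H3K4me1 at 53.1 to 77.2 and NKX2-1 at H3K27ac regions at 53.5 to 78.0. Under each alternative the same grouping of lines chose the regions, which favours this sign, so its stability is a description. Without 1 line these differences were 38.3 to 55.9, 59.5 to 77.2 and 71.4 to 75.4 points, and the 14q13 background difference was 0.779 to 1.43. High-pair minus lower-pair regions turned sign near COL19A1 (−1) and TEAD1 (2) with windows at gene ends. Within 10 kb they turned near 4 named genes, among them SLC25A21 (−2), MIPOL1 (−1) and TSHR (−1). With the 20000 strongest peaks they turned near YWHAZ (4), KRT15 (−1) and RSPH1 (−1). With windows at gene ends, CSMD3 had −5 and MACROD2 −4, against −26 and −32 over the span. No paired analysis was possible because each line and antibody had 1 library. Read depth is unknown, so a missing peak may be a weak one.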
